A study of Mus musculus with 29 samples.

Results

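The 51 genes described here copy the genome during S phase, and their transcripts were followed through the first week of adipogenesis in 3T3-L1 cells that had or had not been exposed to an inhibitor of KDM5 histone demethylases. They were chosen as a module by function, with earlier results of these data known, as were all other lists used here. Their symbols were matched to the Ensembl identifiers of the count table, and every one of the 51 is among its 11959 genes. Presence in that table means that a gene passed the filter on low counts set by the authors, so replication genes of lower level are not described. The module holds 15 licensing genes (Orc1 to Orc6, Cdc6, Cdt1, Gmnn and Mcm2 to Mcm7), 6 genes of helicase activation (Mcm10, Cdc45 and Gins1 to Gins4), 9 of polymerases and primase (Pola1, Pola2, Prim1, Prim2, Pold1, Pold2, Pold3, Pole and Pole2) and 6 of the sliding clamp and its loader (Pcna and Rfc1 to Rfc5). It also holds 5 genes that bind single-stranded DNA or join strands (Rpa1, Rpa2, Rpa3, Fen1 and Lig1), 5 of nucleotide supply (Rrm1, Rrm2, Tyms, Tk1 and Dut), the cyclin E genes Ccne1 and Ccne2, and 3 chromatin genes (Chaf1a, Chaf1b and Uhrf1).

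3T3-L1 is an established mouse fibroblast line that turns into adipocytes under a hormone cocktail. Cells received 10 µM KDM5-C70 (C70) or DMSO as vehicle from day -2, when they were confluent, to day 0, when the agent was withdrawn and differentiation was started. RNA was sequenced at days 0, 1, 2 and 7, with 3 vehicle and 4 C70 samples at days 0, 1 and 2, and 4 samples of each at day 7. No group carries a genetic change named in the labels, and all come from 1 cell line. Nothing in the labels says that replicates came from separate cultures, and the p-values then measure only the spread between these samples, which may be technical.

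Before a chromosome can be copied, the origin recognition complex, Cdc6 and Cdt1 load the ring-shaped Mcm2 to Mcm7 helicase onto DNA, a step called licensing, and geminin (Gmnn) blocks Cdt1 afterwards. Cdc45, the GINS complex and Mcm10 then turn the helicase on, primase and the replicative polymerases build the new strands around the Pcna clamp, and ribonucleotide reductase, thymidylate synthase and thymidine kinase supply the nucleotides. Many of these genes are known targets of E2F factors, which are held back by retinoblastoma proteins in resting cells. They are released when cyclin-dependent kinases, among them that of cyclin E, become active. Confluent 3T3-L1 cells are known to re-enter the cell cycle for a short time after the hormone cocktail is given, a phase called mitotic clonal expansion, before they leave it for good as adipocytes.

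The promoters of these genes were read for E2F words, because many replication genes are known E2F targets. Windows from 250 bases before to 50 bases after the RefSeq start site were available for 42 of the 51 genes (GRCm38.p6). They were searched on both strands for the letters TTTCCCGC, TTTCGCGC, TTTGCCGC and TTTGGCGC. At least 1 of these words stood in a window of 16 of the 42 genes (38.1%), against 4.92% of the 9007 genes of the count table that have a window, and 2.26% of all 32851 single windows of that length held one. A word was found for 8 of 13 licensing genes and 4 of 7 polymerase and primase genes, and for 0 of 5 nucleotide supply genes, and the difference between these roles was not tested. The letters CCAAT stood in a window of 25 of the 42 genes (59.5%, against 43.6% of the 9007 genes and 37.4% of all single windows), and TTTGAA in that of 5 (11.9%, against 14% and 17.9%). A match describes these letters only, and a window without one says nothing of what binds there. Of the 16 genes with a word, the 8 below hold one whose flanks of 30 bases lie wholly upstream of the RefSeq start site, and the word farthest upstream is shown in capitals. GENCODE places the start of some of these genes earlier: the Cdc6 and Uhrf1 stretches lie inside the spans given for these genes below, though in no exon. Those of Gins3, Mcm7 and Orc3 overlap an annotated exon (of Gins3, of Mcm7 and Ap4m1, and of Rars2) and are shown with flanks of 11 bases:
Cdc6 (chr11:98907983-98908050, + strand, word starting 138 bases before the start site): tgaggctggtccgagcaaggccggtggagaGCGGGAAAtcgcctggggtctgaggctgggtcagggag
Gins3 (chr8:95633507-95633536, + strand, 41 bases before): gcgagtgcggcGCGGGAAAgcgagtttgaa
Mcm5 (chr8:75109326-75109393, + strand, 153 bases before): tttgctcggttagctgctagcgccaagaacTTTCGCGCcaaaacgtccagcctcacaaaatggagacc
Mcm6 (chr1:128359778-128359845, - strand, 110 bases before): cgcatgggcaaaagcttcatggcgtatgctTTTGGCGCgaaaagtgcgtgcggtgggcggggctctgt
Mcm7 (chr5:138172030-138172059, - strand, 165 bases before): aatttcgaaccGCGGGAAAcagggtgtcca
Orc3 (chr4:34614965-34614994, - strand, 41 bases before): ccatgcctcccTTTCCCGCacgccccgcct
Pola1 (chrX:93632256-93632323, - strand, 138 bases before): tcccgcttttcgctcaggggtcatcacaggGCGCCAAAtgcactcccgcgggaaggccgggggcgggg
Uhrf1 (chr17:56304098-56304165, + strand, 185 bases before): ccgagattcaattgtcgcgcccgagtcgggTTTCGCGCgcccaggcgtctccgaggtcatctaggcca
The capitals in Cdc6, Gins3, Mcm7 and Pola1 are the reverse complement of a listed word. In Mcm5 and Mcm6 a word on the other strand overlaps the one marked.

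Samples held 16320275 to 24037170 counts, and the 51 genes together took 0.0795% to 0.199% of them as group means. Single genes ranged from 1 count (Pole2) to 3960 counts (Rfc1) in a sample, and 4 genes (Cdc6, Chaf1b, Orc1 and Pole2) had under 10 counts in at least 1 sample, so their day 7 values are imprecise. The library labelled day 7 vehicle replicate 1 stood apart from its group: its chi-square per degree of freedom against the other 3 was 40.0 to 46.8, where all other replicate pairs lay between 2.66 and 14. Counts and medians of the members at day 7, and the day 7 calls of single members, are therefore given with and without it, a choice made after seeing the data. An antisense gene overlaps 20 of the 51 genes, and Pcna and Tyms have pseudogenes named after them. The kit keeps the strand but the counting setting is not stated in the sources used here, so some reads may belong to those neighbours.

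Markers of other cell states moved with C70 as well. Of all genes, 3.09%, 7.8%, 13.6% and 4.85% were lower with C70 at days 0, 1, 2 and 7. Higher were 5.89%, 13.6%, 16.9% and 14.3%, and the marker counts that follow stand against these shares. Of 10 adipocyte markers in the table, 7 were lower with C70 at day 1 and 7 at day 2, and their summed CPM (counts scaled to a common library total) at day 2 was 24270 to 25094 in vehicle and 14126 to 15693 in C70. Of 8 fibroblast markers, 4 were higher at day 1 and 1 lower, and 7 were higher at day 2, with sums of 6203 to 6556 CPM in vehicle and 9759 to 11005 CPM in C70 at day 2. At day 7 the adipocyte sums overlapped (27719 to 33105 CPM in vehicle, 30114 to 33236 CPM in C70) and all 8 fibroblast markers were higher in C70. Without day 7 vehicle replicate 1 all 8 were higher too, and the adipocyte sums of vehicle were 27719 to 29245 CPM, below those of C70. At day 0, 2 adipocyte markers were lower and 2 higher, and 1 fibroblast marker was higher. Of the defining immune markers only Cd68 of 6 is in the table, of muscle markers only Des of 4, and of the 4 endothelial and 4 epithelial markers none. Cd68 was at 1.13 to 1.67 CPM in vehicle and 18.7 to 19.8 CPM in C70 at day 0. It was at 1.74 to 2.01 and 13.6 to 15.1 CPM at day 1, and at 1.33 to 1.75 and 6.35 to 6.94 CPM at day 2. Des was at 4.18 to 5.61 CPM in vehicle and 8.69 to 10.0 CPM in C70 at day 0. Its values were 1.83 to 2.58 and 5.45 to 7.24 CPM at day 1, and 3.48 to 3.64 and 4.76 to 5.39 CPM at day 2. Both genes overlapped between treatments at day 7. The labels call the cells adipocytes on every day, while the adipocyte markers summed to 1399 to 1530 CPM in day 0 vehicle. The part of these shifts in the results below was not tested. In bulk RNA a smaller number of cells in S phase and less RNA per cell cannot be told apart.

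In vehicle cells, the module did not move as a block during the first days. A gene is said to rise or fall, or to be called, where edgeR's quasi-likelihood test gave a Benjamini-Hochberg adjusted p under 0.05 over all 11959 genes and the change exceeded 0.32 on the log2 scale in either direction. From day 0 to day 1, 17 members fell (27.9% of all genes fell) and 8 rose (26.2% of all genes rose), with a median log2 change of -0.01. From day 0 to day 2, 24 rose (33.4% of all genes) and 10 fell (32.4% of all genes), with a median of 0.28. By day 7, 35 had fallen (36.7% of all genes) and 8 had risen (36.7% of all genes), with a median of -1.43. Without day 7 vehicle replicate 1 the counts at day 7 were 37 and 8 and the median was -1.46. The share of members that fell was near the background at day 1 and above it at day 7. These 3 comparisons share the day 0 vehicle samples.

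The licensing genes went separate ways at day 1. Mcm2, Mcm3, Mcm4, Mcm5, Mcm6 and Cdt1 fell by 0.78, 0.55, 0.49, 0.35, 0.75 and 0.77 on the log2 scale, while the origin binding genes Orc2 and Orc5 rose by 0.55 and 0.59. The Mcm5 call was lost without day 0 vehicle replicate 2 or day 1 vehicle replicate 1, at -0.25 and -0.27. Set out by promoter, 11 of 16 genes with an E2F word fell at day 1 (median -0.49), where 27.9% of all genes fell. Of genes with a window but no word, 3 of 26 fell (median 0.15). So did 3 of 9 genes without a window in the table (median -0.18). This split was noticed in these data and no test was made of it. The 3 members with the greatest rise at day 1 were Ccne2, which binds and activates Cdk2 at the start of S phase (1.69, SE 0.115), Rrm2, the regulated subunit of ribonucleotide reductase (0.89, SE 0.0736), and Ccne1 (0.74, SE 0.0787).

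At day 2, 8 of 15 licensing genes rose (53.3%, against 33.4% of all genes) and 3 fell (Mcm2, Mcm3 and Mcm4, by 0.53, 0.56 and 0.68), while 2 of 5 nucleotide supply genes rose (40%) and 0 fell (0 at an unadjusted p under 0.05). Of the 9 polymerase and primase genes, 1 rose and 2 fell, where 32.4% of all genes fell. Ccne2 had the greatest rise of all 51, at 2.55 (SE 0.109). Cdc45, which joins the Mcm ring to make the active helicase, rose by 1.78 (SE 0.105), Rrm2 by 1.78 (SE 0.0726), Cdc6, which loads the ring, by 1.33 (SE 0.177), Tk1, which salvages thymidine, by 1.13 (SE 0.131) and Gmnn by 1.00 (SE 0.148). Levels per length of transcript (RPKM, CPM per kilobase of merged exon) placed Mcm4 highest among the members in day 0 vehicle at 26.4 ± 2.19 RPKM (SD, n = 3), next to Pcna at 24.2 ± 2.90, which is within its spread. In day 2 vehicle Rrm2 was highest at 40.8 ± 0.726 RPKM (SD, n = 3), above Pcna and Rfc1 at means of 27.5 and 27.3 RPKM. At day 7 the 51 genes took 0.0874% of the counts of vehicle samples, against 0.17% at day 0. Mcm5, which had one of the greatest falls, was at 2.39, 1.75, 2.50 and 1.75 CPM, against 41.7, 49.5 and 39.8 CPM at day 0. The 8 members that rose were Orc5 (1.84), Ccne2 (1.61), Cdc45 (1.17), Orc2 (0.86), Gins4 (0.48), Rfc1 (0.42), Orc4 (0.38) and Orc3 (0.36). Quantile normalization ended the calls of Orc3 and Orc4. The Orc3 call was also lost with size factors from median ratios and after removal of the 25% of genes with the lowest mean CPM. Without day 7 vehicle replicate 1 the same 8 rose, between 0.36 (Orc3) and 1.83 (Orc5), with Gins4 at 0.38. Called in neither direction were Orc6, Gins1, Pold2, Pold3, Rpa2, Rpa3, Dut and Ccne1, at -0.31 (Rpa2) to 0.25 (Gins1), of which Rpa2 and Dut fell without that library, by 0.42 and 0.34.

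**Figure D1:**
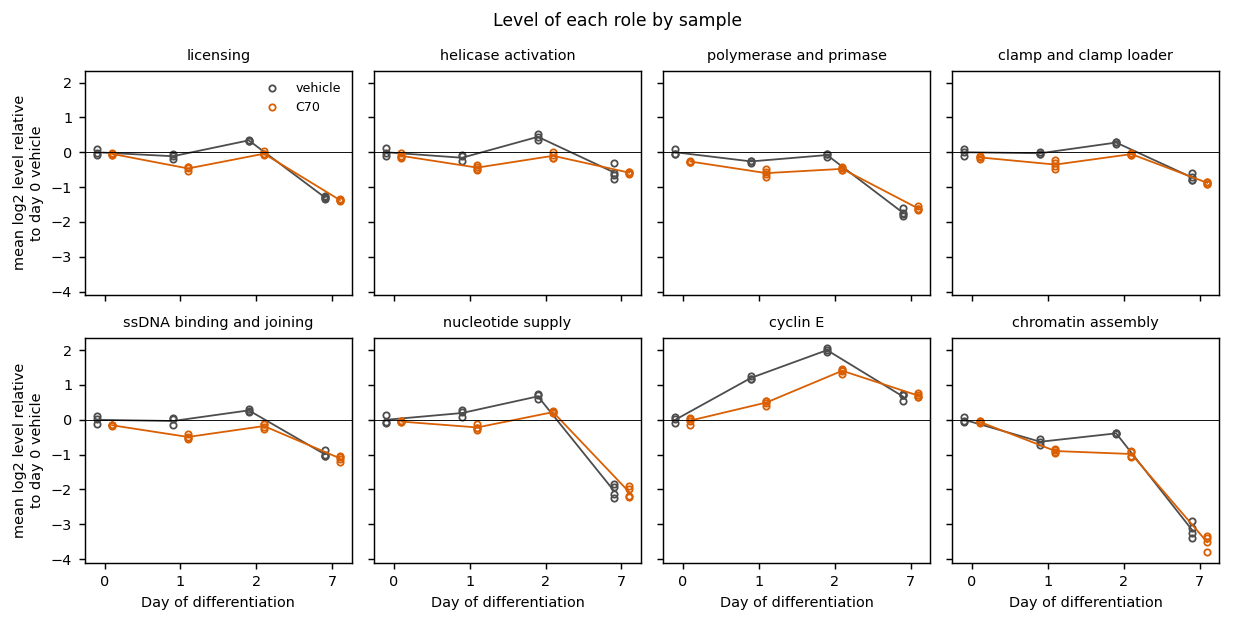
Mean log2 level of the genes of each role, relative to the mean of day 0 vehicle, in every sample (points) at days 0, 1, 2 and 7, drawn at even spacing. Lines join the group means of vehicle and C70 samples. Nucleotide supply genes stood at 0.59 to 0.73 in day 2 vehicle and at 0.18 to 0.24 in day 2 C70, and at -2.24 to -1.84 in day 7 vehicle.

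The members that differed between C70 and vehicle were few at the end of treatment and many on the following days. At day 0, 5 members were lower (3.09% of all genes were lower), Pola1, Prim1, Pold1, Pold2 and Rfc4. This count lay between 3, without day 0 vehicle replicate 2, and 6 when a library was left out, and was 3 with a replicate block within day. At day 1, 27 were lower (7.8% of all genes), and at day 2, 32 (13.6% of all genes). At day 7, 4 were lower (4.85% of all genes) and 1 was higher (14.3% of all genes). Without day 7 vehicle replicate 1 they were 3 and 2 (Pole and Mcm6), without day 7 vehicle replicate 4 there were 3 higher (Pole, Mcm6 and Cdt1), and over all libraries left out the counts at day 7 were 3 to 5 lower and 1 to 3 higher. Quantile normalization moved them further, to 12 lower and 0 higher. The median log2 difference over the 51 genes was -0.09, -0.39, -0.39 and -0.07 at days 0, 1, 2 and 7, where the median over all genes was between -0.01 and 0.00, and the day 7 median was -0.02 without day 7 vehicle replicate 1. Every C70 sample lay below every vehicle sample for 12 members at day 0 (16% of all genes), 35 at day 1 (23.8%), 43 at day 2 (29%) and 6 at day 7 (12.8%), or 7 (17.6%) without that library. No member was higher at days 0, 1 or 2 in edgeR (5.89%, 13.6% and 16.9% of all genes were), DESeq2 called 0 higher too, and 0 members on these days were higher at an unadjusted p under 0.05.

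Days 1 and 2 had 25 lower members in common, which is 92.6% of the 27 and 78.1% of the 32. Of these days, Orc2 and Rfc5 were called only at day 1, and Chaf1b, Gins1, Orc5, Pold1, Pole2, Prim2 and Rpa3 only at day 2. Of the 5 genes of day 0, 3 were called again at day 1 (Pola1, Prim1 and Rfc4) and 4 at day 2. The shares of all genes called on both days of such a pair are not given here, so these overlaps stand without a background. Altogether 37 members were called on at least 1 day and 14 on none, among them Mcm4, Mcm7, Cdt1, Orc1, Orc3, Orc4, Orc6, Rrm1 and Rfc1.

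**Figure D2:**
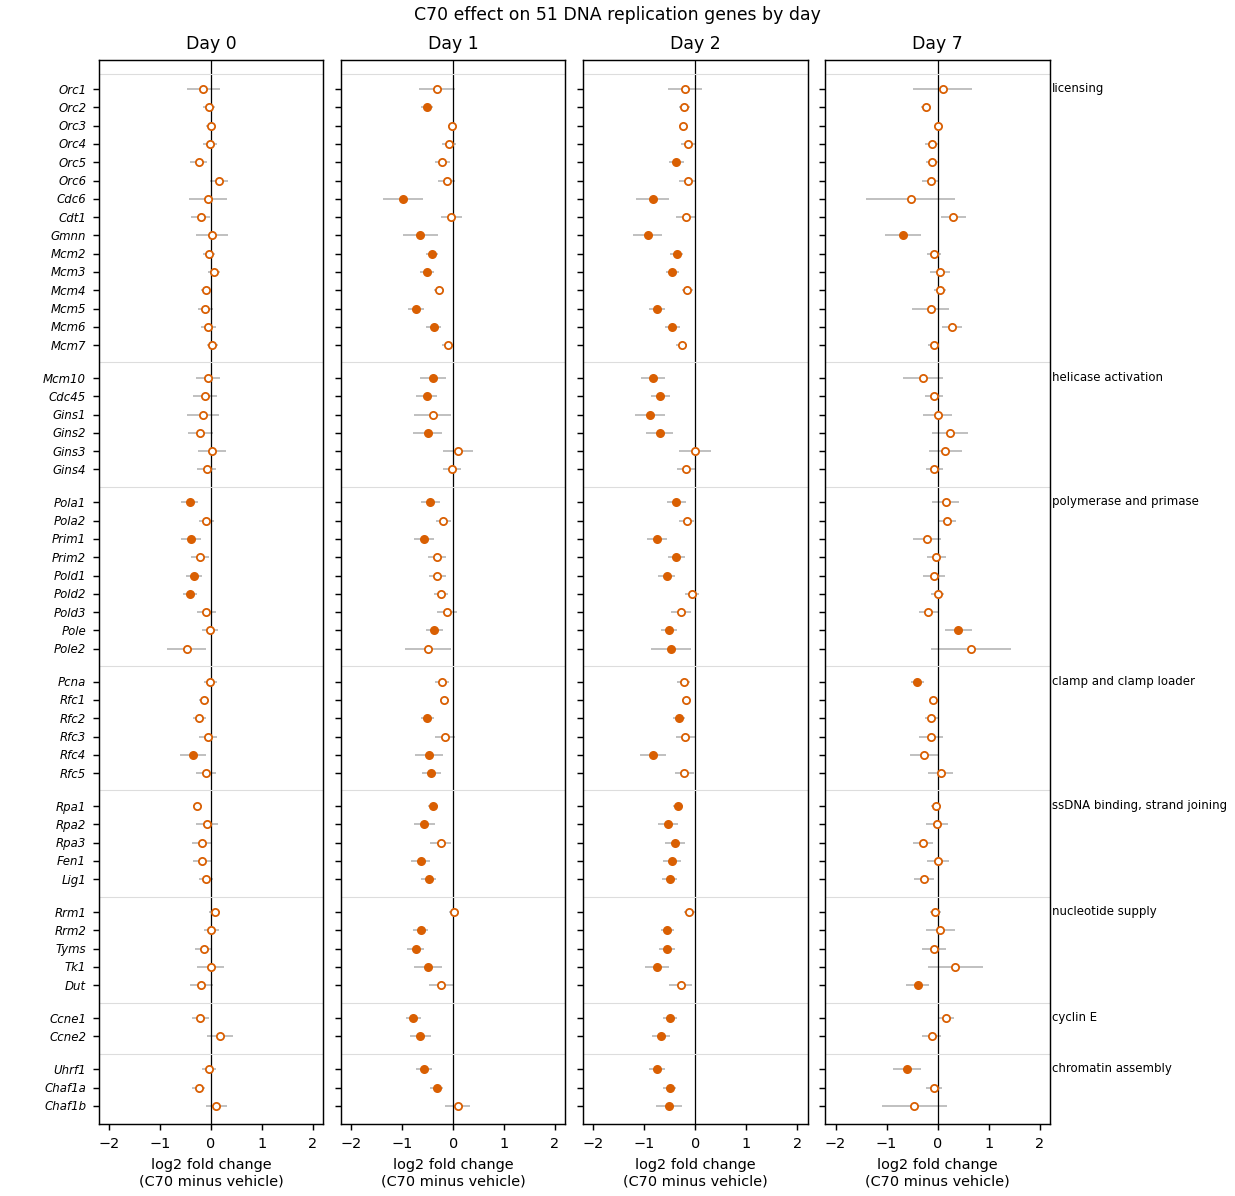
Log2 fold change of C70 against vehicle at days 0, 1, 2 and 7 for the 51 genes, grouped by role. Bars are 95% intervals and filled points are genes called lower or higher. Nearly all points lie left of zero at days 1 and 2 (48 and 51 of 51), while at day 7 they lie on both sides (34 below, and 28 without day 7 vehicle replicate 1).

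The counts by role that follow stand against 3.09%, 7.8%, 13.6% and 4.85% of all genes lower at days 0, 1, 2 and 7. With C70, 7 of the 15 licensing genes were lower at day 1 (median -0.31) and again 7 at day 2 (46.7% of them, median -0.27), and 0 at day 0 (2 at an unadjusted p under 0.05). Most of the lower genes encode the helicase ring, its loader Cdc6 or geminin. Of Mcm2 to Mcm7, 4 were lower at day 1 and 4 at day 2 (medians -0.40 and -0.41), whereas of Orc1 to Orc6 only Orc2 was lower at day 1 and only Orc5 at day 2 (-0.37), with medians of -0.17 and -0.21.

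Mcm5 (ENSMUSG00000005410, chr8:75109569-75128439, GRCm38), a subunit of the ring, was the ring gene with the greatest difference. At day 1 it stood at 30.5, 36.4 and 35.8 CPM in vehicle and at 20.9, 21.1, 20.9 and 20.001 CPM in C70. At day 2 the values were 49.4, 51.7 and 49.5 CPM in vehicle and 29.1, 28.1, 31.8 and 30.4 CPM in C70. The groups were apart on both days, by -0.72 (SE 0.0781, adjusted p = 8.73e-09) and -0.75 (SE 0.0738, adjusted p = 6.31e-10), whereas they overlapped at day 0 (-0.11, adjusted p = 0.326). Mcm3 (-0.51 and -0.45), Mcm2 (-0.41 and -0.37) and Mcm6 (-0.38 and -0.46) were also lower on both days. At day 2 Mcm6 was at 79.0 ± 1.66 CPM in vehicle and 57.6 ± 1.45 CPM in C70, Mcm2 at 75.7 ± 1.85 and 58.7 ± 1.245 CPM, and Mcm3 at 39.3 ± 2.02 and 28.7 ± 2.37 CPM (mean ± SD, n = 3 and 4, as for the means that follow). The remaining ring genes were below the threshold of fold change on both days: Mcm4 was at -0.28 and -0.16, and Mcm7 at -0.11 and -0.27, with day 2 means of 88.2 ± 0.976 and 73.1 ± 2.26 CPM for Mcm7 and 59.1 ± 2.04 and 52.9 ± 0.939 CPM for Mcm4.

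Orc2, which marks origins within the recognition complex, was at 34.1, 35.2 and 35.0 CPM in day 1 vehicle and 25.5, 23.9, 24.6 and 23.7 CPM in C70 (-0.51, adjusted p = 1.82e-08), a wide gap between groups that had overlapped at day 0. At day 2 both treatments were higher than at day 1, with 47.8, 51.9 and 46.8 CPM in vehicle and 40.6, 41.1, 43.2 and 43.4 CPM in C70, and the difference of -0.22 was under the threshold of fold change. Orc5 was at means of 40.6 ± 0.729 CPM in vehicle and 31.3 ± 1.59 CPM in C70 at day 2. The other origin subunits were not called on any day: Orc1 was at -0.31 and -0.21, Orc3 at -0.02 and -0.25, Orc4 at -0.08 and -0.14, and Orc6 at -0.13 and -0.15 at days 1 and 2. Orc3 was at 49.8 ± 0.843 CPM in vehicle and 49.1 ± 1.16 CPM in C70 at day 1, and Orc4 at 54.3 ± 1.65 and 49.2 ± 3.67 CPM at day 2.

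Cdc6 (ENSMUSG00000017499, chr11:98907801-98923940) had the greatest difference of all 51 at day 1. Its vehicle samples at day 1 spread over 4.11, 6.95 and 5.23 CPM, and its C70 samples lay below them at 2.98, 2.36, 2.64 and 2.97 CPM (-0.98, SE 0.191, adjusted p = 0.000113). At day 2 vehicle was at 11.6, 9.41 and 10.999 CPM and C70 at 4.96, 5.57, 5.63 and 7.68 CPM (-0.84, SE 0.16, adjusted p = 5.7e-05). The groups did not overlap on either day.

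Gmnn (ENSMUSG00000006715, chr13:24751845-24761923), the geminin that holds Cdt1 back, was lower on 3 days. It was at 7.15, 7.08 and 6.80 CPM in day 2 vehicle and at 3.79, 3.37, 3.65 and 3.84 CPM in day 2 C70, a difference of -0.93 (SE 0.14, adjusted p = 1.5e-06), after -0.64 at day 1 (adjusted p = 0.0023). Its partner Cdt1 was not called on any day with all libraries in the fit. At day 2 it was at 19.5, 18.3 and 20.2 CPM in vehicle and 15.9, 15.6, 18.5 and 17.6 CPM in C70 (-0.19, 95% interval -0.38 to -0.01). At day 7 the groups did not overlap, at 5.005, 5.18, 5.93 and 6.03 CPM in vehicle and 6.49, 6.68, 6.37 and 7.96 CPM in C70. That difference of 0.31 (adjusted p = 0.0331) was under the threshold of fold change, and it passed without vehicle replicate 3 or 4 or C70 replicate 1, 2 or 3 of that day (0.33 to 0.35), and was 0.27 without vehicle replicate 1. Whether the C70 differences of Gmnn and Cdt1 are unlike was not tested.

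**Figure D3:**
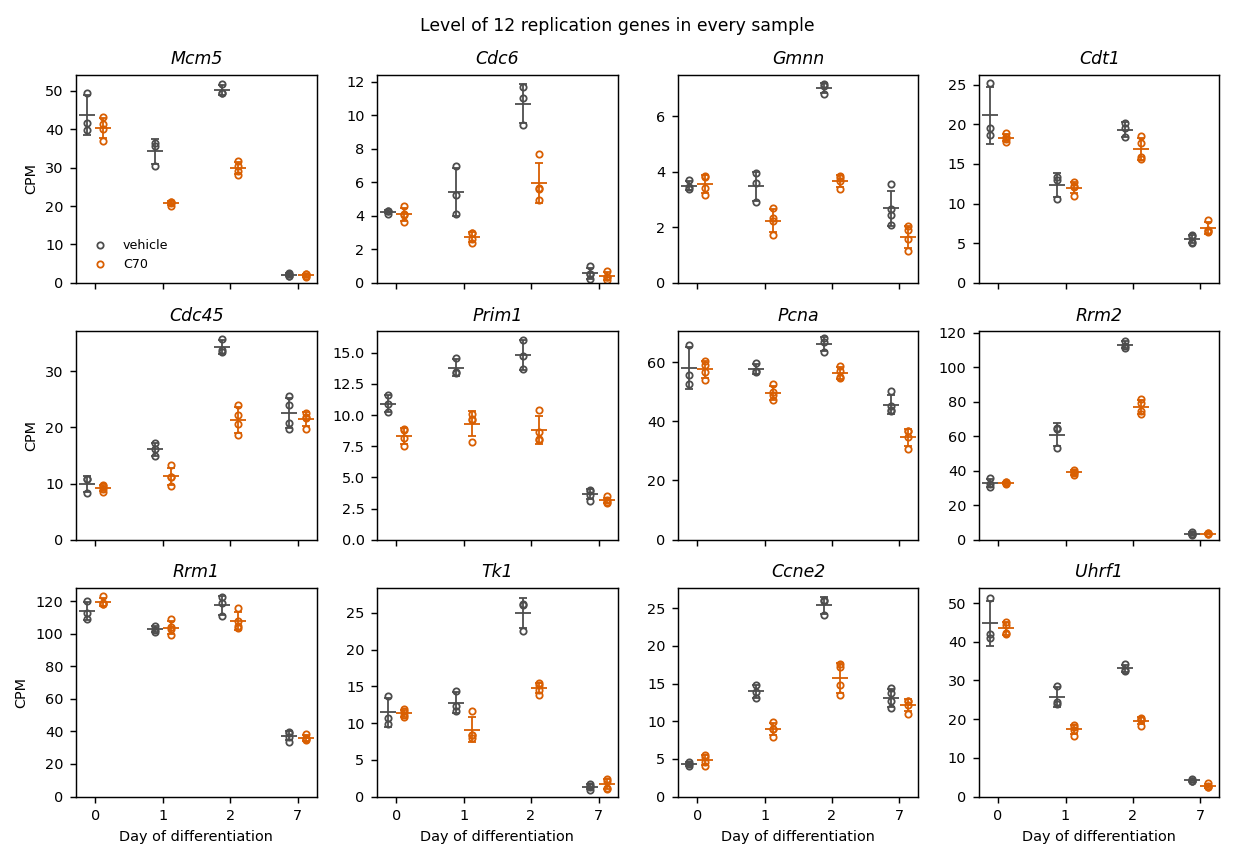
CPM in every sample (points) with the mean ± SD of each group for 12 members, by day and treatment. In Mcm5, Cdc6, Gmnn, Cdc45, Rrm2 and Ccne2 the day 2 C70 samples lie below all day 2 vehicle samples, and in Rrm1 they overlap (105, 103, 108 and 116 CPM against 119, 111 and 122 CPM).

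Of the 6 genes that turn the loaded helicase on, 3 were lower at day 1 (median -0.40) and 4 at day 2 (median -0.69), and 0 at days 0 and 7 (0 at an unadjusted p under 0.05 on either day). Cdc45 (ENSMUSG00000000028, chr16:18780447-18811987) was at 35.8, 33.7 and 33.5 CPM in day 2 vehicle and at 18.6, 20.6, 24.004 and 22.2 CPM in day 2 C70, with no overlap (-0.69, SE 0.0909, adjusted p = 1.92e-07). At day 1 it was at -0.52 (adjusted p = 0.000171). Mcm10, which binds the active helicase, was at -0.40 and -0.83 (adjusted p = 8.07e-07 at day 2). Its day 1 call was lost without day 1 vehicle replicate 2 or 3, at -0.33 and -0.36. The GINS subunits spread widely, with Gins1 at -0.40 and -0.89 and Gins2 at -0.50 and -0.70, but Gins3 at 0.10 and -0.00 and Gins4 at -0.02 and -0.19. At day 2 Gins1 was at means of 5.77 ± 0.979 CPM in vehicle and 3.11 ± 0.428 CPM in C70, and Gins4 at 35.8 ± 0.171 and 31.4 ± 1.54 CPM. Gins3 was at 6.17 ± 0.53 and 6.59 ± 0.55 CPM at day 1 and at 5.39 ± 0.587 and 5.37 ± 0.831 CPM at day 2, with overlap on both days.

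Polymerase and primase genes made up 4 of the 5 members lower at day 0, when C70 had just been withdrawn. Of the 9, 4 were lower at day 0 (median -0.33), 3 at day 1 (median -0.31) and 6 at day 2 (median -0.37). Prim1 (ENSMUSG00000025395, chr10:128015168-128030037), the catalytic subunit of primase, was at 11.6, 10.2 and 10.9 CPM in day 0 vehicle and at 7.53, 8.13, 8.79 and 8.87 CPM in C70 (-0.39, SE 0.0963, adjusted p = 0.00382). It was lower again at day 1 (-0.57, adjusted p = 1.13e-05) and at day 2, with vehicle at 14.7, 13.7 and 16.1 CPM and C70 at 10.4, 8.66, 8.02 and 8.04 CPM (-0.75, adjusted p = 6.94e-08). All 3 differences were free of overlap. Pola1 (ENSMUSG00000006678, chrX:93304767-93632155), the catalytic subunit of the polymerase that extends primers, was at 36.5, 41.5 and 35.7 CPM in day 0 vehicle and at 29.3, 28.7, 26.6 and 28.6 CPM in C70 (-0.42, SE 0.0845, adjusted p = 0.00051), and stayed lower at -0.45 and -0.37.

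Polymerase delta copies the lagging strand. Pold2, a small subunit of it (ENSMUSG00000020471, chr11:5872180-5878292) was at 27.6, 27.3 and 26.3 CPM in day 0 vehicle and 21.1, 19.996, 19.8 and 20.6 CPM in C70 (-0.41, SE 0.0678, adjusted p = 4.32e-05). It was at -0.24 at day 1 and -0.07 at day 2, where the 95% interval was -0.20 to 0.07 and the groups overlapped. Pold1, the catalytic subunit, was lower at day 0 (-0.33, adjusted p = 0.00231) and day 2 (-0.57). Its day 0 call was lost when vehicle replicate 2 or C70 replicate 4 of that day was left out, at -0.24 and -0.31. Pold3 was at -0.12 and -0.28 at days 1 and 2, and was not called, with means of 10.4 ± 1.03 CPM in vehicle and 9.60 ± 0.623 CPM in C70 at day 1. Pola2, the partner of Pola1, was at -0.19 and -0.17, with day 2 means of 45.0 ± 3.09 CPM in vehicle and 40.1 ± 1.76 CPM in C70. Prim2, the other primase subunit, was at -0.31 at day 1 and lower at day 2 (-0.37, adjusted p = 0.000381). Pole2, the partner of Pole, was at -0.47 and -0.49 at days 0 and 1 (adjusted p = 0.0704 on both) and lower at day 2 (-0.48, adjusted p = 0.0411), a call lost without any of 6 libraries (-0.51 to -0.35). Pola1 and Pole are given in full because their values stood out when seen.

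With all libraries in the fit, Pole, the catalytic subunit of the leading strand polymerase, was the only member called in both directions on different days. Mcm6, lower at days 1 and 2, was higher at day 7 without day 7 vehicle replicate 1 or 4 (0.42 and 0.33). Pole2, lower at day 2, was higher at day 7 without day 7 vehicle replicate 2 (1.07). Pole was at 28.6, 31.3 and 31.1 CPM in day 2 vehicle and at 19.5, 20.6, 20.8 and 23.6 CPM in C70 (-0.52, SE 0.0805, adjusted p = 2.71e-06). At day 7 it was at 3.67, 4.73, 3.72 and 3.95 CPM in vehicle and at 5.15, 5.56, 4.94 and 5.64 CPM in C70 (0.41, SE 0.125, adjusted p = 0.00955), and 0.38 without day 7 vehicle replicate 1. The day 1 difference of -0.38 lost its call when vehicle replicate 2 or C70 replicate 4 of that day was left out, both at -0.31. The day 7 call was lost under quantile normalization, at 0.19.

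Of the clamp and loader genes, 3 of 6 were lower at day 1 (median -0.32), 2 at day 2 (median -0.23) and 1 each at days 0 and 7. Those of day 0 and day 7 were Rfc4 and Pcna. Pcna (ENSMUSG00000027342, chr2:132249162-132253314), the clamp itself, was separate from vehicle at days 1 and 2 but under the threshold of fold change, at -0.22 and -0.23. At day 7 it was lower, at 50.2, 43.7, 43.6 and 45.0 CPM in vehicle and 30.7, 36.7, 36.6 and 34.5 CPM in C70 (-0.40, SE 0.0647, adjusted p = 1.03e-05), and -0.35 without day 7 vehicle replicate 1. Rfc4, a loader subunit, was at 11.8, 9.99 and 11.4 CPM in day 2 vehicle and 5.98, 4.95, 6.94 and 6.97 CPM in C70 (-0.83, SE 0.123, adjusted p = 1.33e-06). Its day 0 difference (-0.35, adjusted p = 0.0448) came with overlapping groups and was lost without any of 9 libraries, at -0.38 to -0.26. Rfc2 was at -0.51 and -0.32, and its day 2 call was lost without any of 5 libraries (-0.32 to -0.30). At day 1 it stood at means of 40.6 ± 0.719 CPM in vehicle and 28.6 ± 2.29 CPM in C70. Rfc1, the large subunit, was at -0.17 and -0.18, with day 2 means of 164 ± 2.12 and 145 ± 3.53 CPM. Rfc3 was at -0.16 and -0.20, with day 1 means of 11.8 ± 0.434 and 10.6 ± 1.43 CPM, and Rfc5 at -0.43 (adjusted p = 0.000423) and -0.22.

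Of the genes that coat or join strands, 4 of 5 were lower at day 1 (median -0.48) and all 5 at day 2 (median -0.46), and 0 at day 0 (1 at an unadjusted p under 0.05). Fen1, which trims the flaps of lagging strand fragments, was at 22.5, 23.9 and 26.4 CPM in day 1 vehicle and 15.2, 13.7, 18.2 and 15.4 CPM in C70 (-0.64, SE 0.0893, adjusted p = 9.27e-07). Lig1, which seals them, was at -0.48 and -0.50, and the single-strand binding subunits Rpa1 and Rpa2 were at -0.39 and -0.34 and at -0.57 and -0.54. Rpa1 was at means of 71.9 ± 1.54 and 56.6 ± 1.59 CPM at day 2, and Rpa2 at 19.5 ± 2.12 and 13.4 ± 0.836 CPM. Rpa3 was at -0.25 at day 1 and lower at day 2 (-0.39, 25.8 ± 0.38 and 19.6 ± 1.61 CPM). No call of these genes at days 1 and 2 was lost when a library was left out.

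Of the nucleotide supply genes, 3 of 5 were lower at days 1 and 2 (medians -0.50 and -0.55), Rrm2, Tyms and Tk1 on both days. Rrm2 (ENSMUSG00000020649, chr12:24708241-24714146) was at 53.2, 64.9 and 64.4 CPM in day 1 vehicle and 37.7, 39.2, 40.7 and 38.7 CPM in C70 (-0.64, SE 0.0678, adjusted p = 6.07e-09). At day 2 it reached 115, 111 and 113 CPM in vehicle and 72.9, 79.1, 81.9 and 74.7 CPM in C70 (-0.55, SE 0.0637, adjusted p = 1.55e-08). The day 2 samples of both treatments lay above all samples of day 0, where the treatments overlapped with means of 33.0 ± 2.47 CPM (SD, n = 3) and 33.0 ± 0.7 CPM (SD, n = 4).

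Rrm1 (ENSMUSG00000030978, chr7:102441695-102469771), the large subunit of the same enzyme, was not called at any day. It was at 101, 103 and 105 CPM in day 1 vehicle and 109, 104, 103 and 99.3 CPM in C70, with overlap and a 95% interval of -0.09 to 0.12. Its day 2 difference was -0.12 (adjusted p = 0.0494), under the threshold of fold change. Tyms, which makes thymidylate, was at 26.2, 29.8 and 29.2 CPM in day 1 vehicle and 16.6, 16.4, 16.2 and 19.03 CPM in C70 (-0.73, SE 0.0798, adjusted p = 1.01e-08). Tk1 (ENSMUSG00000025574, chr11:117815526-117826092) was at 26.2, 22.6 and 26.1 CPM in day 2 vehicle and 13.8, 15.2, 14.5 and 15.5 CPM in C70 (-0.75, SE 0.119, adjusted p = 3.77e-06), while at day 1 its groups overlapped through C70 replicate 3 (-0.50, adjusted p = 0.00374). Its day 1 call was lost in both limma fits. Dut, which removes dUTP, was at -0.23 and -0.29 at days 1 and 2, and lower at day 7 (-0.39, adjusted p = 0.00568). That call was lost without day 7 vehicle replicate 1, at -0.25.

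Both cyclin E genes were lower at days 1 and 2. Ccne1 was at 20.99, 22.2 and 22.7 CPM in day 1 vehicle and 13.5, 12.8, 12.4 and 12.5 CPM in C70 (-0.78, SE 0.0741, adjusted p = 7.21e-10). The C70 samples of day 2 were at 24.9, 24.5, 26.7 and 27.5 CPM, above all day 1 vehicle samples and below the 35.8, 35.7 and 38.2 CPM of day 2 vehicle. Ccne2 was at 13.9, 14.8 and 13.1 CPM against 8.99, 7.87, 9.03 and 9.88 CPM at day 1, and at 26.1, 24.1 and 26.04 CPM against 17.7, 17.3, 13.5 and 14.8 CPM at day 2. Neither cyclin had overlapping groups on these days.

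The chromatin genes were lower in 2 of 3 at day 1 and 3 of 3 at day 2. Uhrf1 (ENSMUSG00000001228, chr17:56303321-56323486), which brings the maintenance DNA methyltransferase to newly copied DNA, was at 32.8, 34.1 and 32.4 CPM in day 2 vehicle and 20.1, 19.7, 18.3 and 20.4 CPM in C70 (-0.75, SE 0.0759, adjusted p = 1.04e-09). It remained lower at day 7, at 4.07, 4.11, 4.46 and 4.00 CPM in vehicle and 2.47, 2.60, 2.50 and 3.38 CPM in C70 (-0.60, SE 0.135, adjusted p = 0.000623), and -0.61 without day 7 vehicle replicate 1. Gmnn was the other gene lower at days 1, 2 and 7, at 3.55, 2.65, 2.45 and 2.08 CPM in day 7 vehicle and 2.04, 1.89, 1.13 and 1.58 CPM in C70 (-0.68, adjusted p = 0.00253), and -0.52 without that library. Chaf1a and Chaf1b, subunits of the complex that sets histones behind the fork, were lower together only at day 2. Chaf1a was at -0.33 at day 1, a call lost without any of 6 libraries (-0.32 to -0.29), and at -0.50 at day 2, with means of 41.7 ± 1.62 and 29.4 ± 0.991 CPM. Chaf1b was at 0.09 at day 1, with 9.35, 10.0 and 9.61 CPM in vehicle and 10.7, 10.1, 9.49 and 10.8 CPM in C70. At day 2 it was at 10.8, 10.1 and 9.26 CPM in vehicle and 5.92, 7.59, 6.52 and 7.89 CPM in C70 (-0.52, adjusted p = 0.00086). This day 2 call was lost in both limma fits.

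Whether the C70 difference itself changed from day to day was tested by interaction contrasts. Between days 0 and 1 it moved down for 16 members (5.23% of all genes) and up for 0 (8.68% of all genes), with a median of -0.19, and 0 moved up by DESeq2 or at an unadjusted p under 0.05. Of these 16, 7 were licensing genes (Orc2, Cdc6, Gmnn, Mcm2, Mcm3, Mcm5 and Mcm6), and Pole was the only one of the polymerase genes. For Pola1, Prim1, Pold1 and Pold2 the change was -0.03, -0.18, 0.02 and 0.17, with 95% intervals of -0.28 to 0.23, -0.46 to 0.09, -0.21 to 0.25 and -0.03 to 0.37, so that their early difference was not shown to grow. Leaving out 1 library ended the call for Cdc6 (day 1 vehicle replicate 2, -0.71), Mcm2 (day 0 vehicle replicate 3, -0.32), Gmnn (any of 8 libraries, -0.65 to -0.55), Mcm6 (any of 6, -0.31 to -0.27) and Pole (any of 4, -0.35 to -0.29). Nucleotide supply gave Rrm2 (-0.65, adjusted p = 1.58e-05) and Tyms (-0.59, adjusted p = 0.000276).

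Between days 1 and 2 the difference moved for 1 member, Chaf1b (-0.61, adjusted p = 0.0114; 6.49% of all genes moved down, a call lost at -0.63 under quantile normalization and at -0.61 and -0.62 in both limma fits), and up for 0 (7.36% of all genes; 3 members at an unadjusted p under 0.05 and 0 by DESeq2). Between days 2 and 7 it moved up, towards or past vehicle, for 23 members (11.9% of all genes) and down for 0 (9.04% of all genes; 0 at an unadjusted p under 0.05 and 0 by DESeq2), with a median of 0.31. These were 7 of 9 polymerase and primase genes, 4 of 15 licensing genes and 3 of 5 nucleotide supply genes, with the remainder in the other roles. The change was 0.93 (SE 0.149, adjusted p = 1.48e-05) for Pole, 1.099 for Tk1 and 0.62 for Mcm5, of which the Mcm5 call was lost without day 7 C70 replicate 1 or 2 (0.54 and 0.53). The count of 23 lay between 21 and 23 when any library was left out, and was 23 without day 7 vehicle replicate 1, with the median still at 0.31 and 6 of 9 polymerase and primase genes among them. At day 7 most members were low in both treatments, so that values rest on fewer counts than at day 2, such as 18 to 41 counts per C70 sample for Tk1.

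Licensing, polymerase and nucleotide supply genes can be set side by side through the mean log2 level of each role relative to day 0 vehicle. At day 0 the polymerase and primase samples were apart, at -0.05 to 0.10 in vehicle and -0.28 to -0.25 in C70, whereas licensing (-0.08 to 0.10 against -0.07 to -0.01) and nucleotide supply (-0.09 to 0.15 against -0.08 to -0.04) overlapped. Clamp and loader genes were also apart at day 0, by a narrower gap (-0.10 to 0.09 against -0.19 to -0.12). So were strand binding and joining genes (-0.13 to 0.10 against -0.18 to -0.14). The mean of all members was apart too (-0.08 to 0.11 against -0.13 to -0.11). Helicase activation, cyclin E and chromatin genes overlapped on that day. At day 2 licensing, polymerase and nucleotide supply genes were all apart. Licensing was at 0.33 to 0.36 in vehicle and -0.09 to 0.03 in C70. Polymerase was at -0.13 to -0.04 and -0.51 to -0.43, and nucleotide supply at 0.59 to 0.73 and 0.18 to 0.24. The nucleotide supply mean rests on unlike genes: in day 2 C70, Rrm2 and Tk1 were at means of 77.2 and 14.8 CPM, above the 33.0 and 11.5 CPM of day 0 vehicle, and Tyms, Rrm1 and Dut were at 20.5, 108 and 19.3 CPM, below 24.4, 114 and 21.9 CPM. No test was made between roles, since each was chosen as a list and holds few genes.

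The response to C70 was set out by the same E2F words, again with no test. At day 2 the median difference was -0.41 in the 16 genes with a word (9 lower), -0.38 in the 26 genes with a window and no word (16 lower) and -0.52 in the 9 genes without a window in the table (7 lower), where 13.6% of all genes were lower. Of the 8 genes whose sequence is printed, Cdc6, Mcm5, Mcm6, Pola1 and Uhrf1 were lower with C70 at day 2, and Gins3, Mcm7 and Orc3 were not called on any day. Of the genes with a window and no word, Prim1, Rrm2, Tk1 and Rfc4 were among the lower ones.

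**Figure D4:**
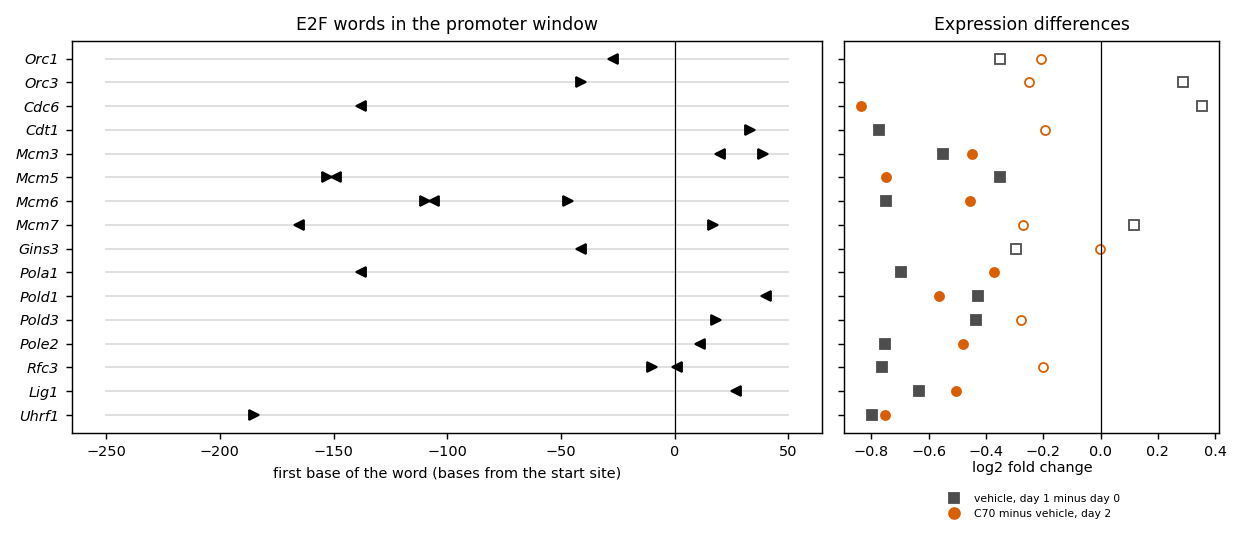
Left, position of each E2F word from 250 bases before to 50 bases after the RefSeq start site in the 16 genes that hold one (right-pointing marks, as written; left-pointing, reverse complement). Right, log2 change in vehicle from day 0 to day 1 (squares) and C70 against vehicle at day 2 (circles), filled where called; 11 squares and 9 circles are called lower.

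Other genes of the pathway were set beside the module, 68 in all, of origin firing, fork protection, nucleotide metabolism, E2F and RB control and histone supply. With C70, 31 of them were lower at day 1 (45.6%, against 7.8% of all genes) and 1 higher (1.47%, against 13.6%), and 28 were lower at day 2 (41.2%, against 13.6%) and 0 higher (against 16.9%; 2 by the adjusted p alone). At day 0, 3 were lower (4.41%, against 3.09%) and 1 higher (against 5.89%), and at day 7, 5 were lower (7.35%, against 4.85%) and 2 higher (2.94%, against 14.3%), shares of lower genes near the background. Without day 7 vehicle replicate 1 the counts at day 7 were 4 and 3. Recql4, a helicase needed for origin firing, was at -0.92 at day 2 (SE 0.141, adjusted p = 2.28e-06), and Ccna2, the cyclin of S phase progression, at -0.82 (SE 0.0979, adjusted p = 3.11e-08). Of 12 E2F and RB genes, 4 were lower at day 2, E2f7 (-0.65), Rbl1 (-0.53), E2f8 (-0.36) and Rb1 (-0.33). Of these, E2f7 and E2f8 are known repressors of E2F targets, and Rbl1 and Rb1 encode retinoblastoma proteins, which hold E2F factors back. E2f1 was at -0.22 and not called.

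Of 30 genes of mitosis taken for comparison, 22 were lower at day 1 (73.3%, against 7.8% of all genes, median -0.44) and all 30 at day 2 (against 13.6%, median -0.86), and 0 at day 0 (median -0.07, 2 at an unadjusted p under 0.05). At day 7, 2 were lower (6.67%, against 4.85%) and 4 higher (13.3%, against 14.3%), both shares near the background, and 2 and 3 without day 7 vehicle replicate 1. The median of the replication genes was -0.39 at both days, and the 2 lists were not tested against each other.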

How the data were processed

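Per the labels, RNA from 29 samples of 3T3-L1 cells was isolated with a column kit and sequenced from strand-specific libraries made with an mRNA kit; the study's text speaks of total RNA-sequencing. Reads had been aligned by the authors to GRCm38 (STAR 2.7.2a) and, per the submitters' processing notes, analysed with edgeR 3.26.8; the counting program and the filter on low counts are not given in the sources used here. Although its name says normalized, the deposited table holds whole-number counts per gene, of which 11953 of 11959 matched a symbol. The 51 genes and all other lists were chosen with earlier results of these data known. All samples were fitted together by group without covariates in R 4.3.3 with edgeR 4.0.16 (TMM factors of 0.898 to 1.08, quasi-likelihood test, two-sided), and p-values were adjusted by Benjamini-Hochberg over all genes within each comparison. Genes were called at an adjusted p under 0.05 and a fold change over 1.25, the thresholds of the study. The common biological coefficient of variation was 0.0594. CPM used TMM-scaled totals; mean log2 levels used a prior count of 2. RPKM used merged exons of the GENCODE annotation. Intervals are 95%.

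Values per sample or group were given for each role's most abundant member and its members with the lowest and highest C70 difference at days 1 and 2, for Mcm2 to Mcm7, Cdt1, Gmnn, Cdc6, Pcna, Rrm2, Tyms, Tk1, Ccne1 and Ccne2, and for others where said or where used. Of the other pathway genes, Recql4 and Ccna2 were named for the largest falls at day 2, and none was called higher on that day. The E2F and RB genes called lower at day 2 were named too, with E2f1. Alternatives were other size factors, quantile normalization, limma 3.58.1 on log2 values with prior counts of 2 and 0.5, DESeq2 1.42.0, removal of the 25% of genes with the lowest mean CPM, a separate fit per day, replicate blocks, other thresholds and leaving out each library. The fitting code was tested on simulated data. Replicate numbers did not pair samples.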

Additional observations from a re-analysis of the deposited data

Results flagged for a closer look

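Among 240 groups of 4 samples, 13 held a sample far from the other 3 by Dixon's test at 95%, where chance flags about 1 in 20 groups, or 12. In CPM, and with the range of the other samples, these were Orc3 in day 1 C70 replicate 3 (47.4, others 49.5 to 49.8), Pola2 in day 0 C70 replicate 4 (34.2, others 35.1 to 35.2), Rfc1 in day 2 C70 replicate 1 (139.98, others 146 to 148), Rpa1 in day 7 C70 replicate 4 (48.6, others 41.7 to 42.5), Rpa2 in day 0 C70 replicate 1 (9.41, others 10.2) and Rrm1 in day 0 C70 replicate 4 (123, others 118 to 119). Tyms was far off in day 1 C70 replicate 4 (19.03, others 16.2 to 16.6) and in day 7 C70 replicate 2 (6.92, others 4.59 to 4.88). The others were Tk1 in day 1 C70 replicate 3 (11.7, others 7.97 to 8.42), Uhrf1 in day 7 C70 replicate 4 (3.38, others 2.47 to 2.60), Mcm3 in day 1 C70 replicate 3 (29.7, others 26.97 to 27.2), Mcm7 in day 7 C70 replicate 1 (36.9, others 40.5 to 41.2) and the mean log2 level of polymerase and primase genes in day 7 C70 replicate 4 (-1.54, others -1.65 to -1.64).

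The C70 difference in log2 changed between days, by edgeR's test of the interaction, for 40 values. From day 0 to day 1 the change was -0.47 for Orc2, -0.93 for Cdc6, -0.66 for Gmnn, -0.37 for Mcm2, -0.57 for Mcm3, -0.61 for Mcm5, -0.33 for Mcm6, -0.36 for Pole, -0.49 for Rpa2, -0.46 for Fen1, -0.38 for Lig1, -0.65 for Rrm2, -0.59 for Tyms, -0.57 for Ccne1, -0.82 for Ccne2 and -0.53 for Uhrf1. The Rpa2 call was lost without day 0 vehicle replicate 3 or day 1 vehicle replicate 2, at -0.43 and -0.40. From day 1 to day 2 it was -0.61 for Chaf1b.

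From day 2 to day 7 the change was 0.50 for Cdt1, 0.50 for Mcm3, 0.62 for Mcm5, 0.74 for Mcm6, 0.61 for Cdc45, 0.89 for Gins1, 0.94 for Gins2, 0.53 for Pola1, 0.36 for Pola2, 0.54 for Prim1, 0.35 for Prim2, 0.49 for Pold1, 0.93 for Pole, 1.14 for Pole2, 0.56 for Rfc4, 0.54 for Rpa2, 0.47 for Fen1, 0.61 for Rrm2, 0.48 for Tyms, 1.099 for Tk1, 0.65 for Ccne1, 0.56 for Ccne2 and 0.44 for Chaf1a. Leaving out 1 library ended the call for Tyms (day 7 C70 replicate 2, 0.33), Pola2 (day 7 vehicle replicate 2 or day 7 C70 replicate 1, 0.29 and 0.30), Rfc4 (any of 3 libraries, 0.45 to 0.51), Prim2 (any of 7, 0.29 to 0.35) and Pole2 (any of 9, 0.77 to 1.18). Calls of Cdc6, Gmnn, Mcm2, Mcm5, Mcm6 and Pole that a library decides are given with the comparisons.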

How the results depend on the processing

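Of 211 called member results, 172 were called in every alternative fit that tested them, and no result changed its direction. The separate fit per day and the replicate block within day each tested only 69 of the 211. Quantile normalization lost 20 calls, and the limma fits with prior counts of 2 and 0.5 lost 11 and 12. Leaving out 1 library kept 6030 of 6119 calls and lost 89. The counts of members lower with C70 at days 0, 1, 2 and 7 (5, 27, 32 and 4) lay between 3 and 6, 24 and 30, 30 and 33, and 3 and 5 when a library was left out, the lowest at day 0 without day 0 vehicle replicate 2, and that of members higher at day 7 (1) between 1 and 3. A fold change over 1.5 left 0, 8, 12 and 2 of them, and the adjusted p alone gave 10 at day 0 and 7 at day 7. Quantile normalization gave 12 at day 7. Without the 25% of genes with the lowest mean CPM, which removed 12 members, the counts were 3 at day 0 and 21 at day 2. Of 157 called results still tested after this filter, 151 were kept and 6 lost. For members that rose in vehicle, a fold change over 1.5 left 5, 14 and 4 at days 1, 2 and 7, and the adjusted p alone gave 14 at day 1. For interactions, a fold change over 1.5 left 6 from day 0 to day 1 and 10 from day 2 to day 7. The single member from day 1 to day 2, Chaf1b, gave 0 under quantile normalization, under both limma fits and after the filter, 2 by the adjusted p alone and 1 to 2 when a library was left out. Leave-one-out counts of the vehicle rises were 7 to 10, 24 to 26 and 8, and of the interactions 11 to 19 and 21 to 23. The cause of these shifts was not tested. A replicate block within day gave 3, 26, 31 and 4 members lower with C70, and one shared over days 5, 27, 31 and 4. Same-numbered samples correlated at -0.205 to 0.214 over 13 pairs, and 3 samples correlated best with their own number, so that the numbers were not taken as pairs. Depth limits the day 7 values of Cdc6, Chaf1b, Orc1 and Pole2, which had under 10 counts in at least 1 sample.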
